A study of Mus musculus with 20 samples.

Results

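The direct comparison of 2 single knockouts of mouse pancreatic beta cells is described here: beta cells without Foxo1 (IKO, 5 libraries) against beta cells without Hnf4a (HKO, 5 libraries). These are 10 of the 20 RNA sequencing libraries of the study, and the genes compared are the 12455 named ones that averaged 0.5 FPKM or more across the 20 libraries, FPKM being a read count scaled to transcript length and to library depth. IKO mice were bred from floxed Foxo1 and HKO mice from floxed Hnf4a, each crossed to RIP-Cre, a Cre recombinase driven by the rat insulin promoter. The other 10 libraries are from beta cells without either factor (DKO, floxed Foxo1 and floxed Hnf4a with RIP-Cre, 5 libraries) and from wild-type beta cells (WT, 5 libraries). They are given beside the single knockouts as levels and compared with each other. They also enter the estimate of the spread on which the calls between IKO and HKO rest. All mice were males of 6 to 8 months on a standard chow diet. In all groups the cells were sorted from islets by a fluorescent tomato reporter at ROSA26 that RIP-Cre switches on, so the WT cells are described as carrying RIP-Cre and the reporter as well. RIP-Cre acts in cells in which the insulin promoter is or has been active, and the sort selects cells by that same history rather than by a surface protein.

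FoxO1 is a forkhead transcription factor that insulin signalling moves out of the nucleus, and in beta cells it is known for holding cell identity under metabolic stress. HNF4A is a nuclear receptor of liver, gut, kidney and islet whose human mutations cause a monogenic form of diabetes, and in those tissues it binds near genes of lipid handling, secreted plasma proteins and the epithelial brush border. Both proteins bind DNA directly, FoxO1 at forkhead motifs and HNF4A at direct repeats that contain a CAAAG box. A gene that differs between IKO and HKO had unequal levels in these libraries, and whether it responded to the loss of either factor was not tested. This comparison alone does not say which knockout moved away from WT. Levels in DKO and WT are therefore given in the text for some genes, and drawn by library for most named genes that passed.

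The libraries carried the markers of the labelled cell type. Ins1 and Ins2, the mouse insulin genes, took 17 to 19.9% of all reads in IKO libraries and 14.9 to 22.3% in HKO libraries. Reads recovered from the FPKM values came to 22.6 to 29.4 Mreads (megareads) per IKO library and 22.8 to 31.6 Mreads per HKO library. Within each genotype, replicates 1 and 2 resembled each other far more than the rest did, and so did replicates 4 and 5. A chi-square measure of the difference between libraries, scaled so that read-counting noise alone gives 1, was 1.44 to 3.08 for these 8 close pairs and 6.05 to 21.5 for the other 32 pairs of one genotype. The labels do not say whether replicates came from separate mice, so p-values that treat 5 libraries as independent may be too small. For this reason calls were also made in a fit in which each close pair was averaged and in one in which it was treated as correlated, and the text says which calls each of them made.

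Of the 12455 genes, 82 passed at a Benjamini-Hochberg adjusted p under 0.05 in limma on log2(FPKM + 0.5), which is 0.658% of the genes tested. They comprised 57 genes higher in IKO (0.458% of those tested) and 25 lower in IKO (0.201%), while 1002 genes had an unadjusted p under 0.05. The genes higher in IKO differed by 0.23 to 1.46 on the log2 scale with a median of 0.60, and the genes lower in IKO by -3.11 to -0.40 with a median of -0.86; the median over all genes tested was 0.02. In 71 of the 82 the IKO and HKO libraries did not overlap, against 247 of all genes tested (1.98%). The 82 were chosen by their difference over these same libraries, so this is not independent support. When close pairs were averaged 9 genes passed (0.0723%; 334 at an unadjusted p under 0.05), and when they were treated as correlated 20 passed (0.161%). All of these 9 and all of these 20 were among the 82, and 8 genes passed in all 3 fits. The count was 226 without IKO replicate 3, 52 without IKO replicate 2, 54 without HKO replicate 2 and 52 without HKO replicate 5. It was 39 with only the IKO and HKO libraries fitted. It was 128 without the 3 libraries highest in acinar cell transcripts, of which 55 were among the 82.

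The promoters of 3 of the genes higher in IKO are printed here because each holds a match to the HNF4 motif searched close to the transcription start. The windows run from 250 bases before to 50 bases after the RefSeq gene start (GRCm38.p6), 5′ to 3′ on the gene's strand, and the match is in capitals.
Anks4b (chr7:120173608-120173907, + strand, match at -59 from the start): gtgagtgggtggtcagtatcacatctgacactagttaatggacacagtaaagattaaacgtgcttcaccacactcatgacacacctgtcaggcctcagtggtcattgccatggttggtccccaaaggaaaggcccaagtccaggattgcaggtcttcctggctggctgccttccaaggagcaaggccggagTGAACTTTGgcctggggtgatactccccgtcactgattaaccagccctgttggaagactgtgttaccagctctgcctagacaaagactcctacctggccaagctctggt
Bco1 (chr8:117095615-117095914, + strand, match at -56): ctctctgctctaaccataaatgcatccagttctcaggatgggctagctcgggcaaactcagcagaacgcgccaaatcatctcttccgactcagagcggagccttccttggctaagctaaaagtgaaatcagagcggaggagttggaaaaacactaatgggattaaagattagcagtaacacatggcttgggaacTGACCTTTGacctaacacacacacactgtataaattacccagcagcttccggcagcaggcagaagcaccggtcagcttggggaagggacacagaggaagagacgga
Hpgds (chr6:65144681-65144980, - strand, match at -102): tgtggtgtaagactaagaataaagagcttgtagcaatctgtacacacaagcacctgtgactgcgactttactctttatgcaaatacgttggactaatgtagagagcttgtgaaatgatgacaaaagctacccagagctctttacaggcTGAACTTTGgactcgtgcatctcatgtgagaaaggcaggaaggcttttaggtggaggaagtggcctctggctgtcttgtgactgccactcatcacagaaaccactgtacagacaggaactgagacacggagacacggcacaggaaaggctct

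The motif searched was CAAAGNNCA, or TGNNCTTTG on the other strand. It was found in 6 of the 39 genes higher in IKO that had a promoter window (15.4%: Ahcy, Anks4b, Bco1, Hpgds, Muc13 and Syt11) and in 0 of the 16 genes lower in IKO that had one. It was found in 540 of 9427 windows of genes tested (5.73%) and in 2089 of all 32851 windows (6.36%). The forkhead core TGTTTAC, or GTAAACA on the other strand, was found in 0 of the same 39 and 0 of the same 16 windows, so it overlaps no HNF4 match there, against 3.06% of windows of genes tested and 3.65% of all windows. These are matches of letters in a short window and not measured binding sites. Whether HNF4A or another protein binds them was not tested. Of the genes with an HNF4 match, Ahcy, Muc13 and Syt11 (log2 differences 0.70, 0.68 and 0.23) did not pass with close pairs averaged or correlated.

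The deleted genes come first, as a check of the labels. Foxo1 (chr3:52268336-52353221, GRCm38) had 1.36, 1.43, 1.51, 0.791 and 0.462 FPKM in the IKO libraries, against 7.49, 7.83, 6.47, 3.95 and 4.1 FPKM in the HKO libraries. Every IKO library was below every HKO library, and in both genotypes replicates 4 and 5 were the lowest. The mean was 1.11 ± 0.46 FPKM in IKO and 5.97 ± 1.84 FPKM in HKO (SD, n = 5 each), which put IKO at 18.6% of HKO. The log2 difference was -2.01 (SE 0.21, limma adjusted p = 3.23e-05), with adjusted p = 0.0209 for averaged pairs and 0.000231 for correlated pairs in the same tool. A two-sided exact permutation test of the 5 against 5 libraries gave p = 0.00794, the smallest that this design allows.

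Hnf4a (chr2:163506808-163572910, GRCm38) had 6.23, 6.23, 5.8, 4.78 and 3.91 FPKM in the IKO libraries, against 4.28, 4.08, 3.64, 3.4 and 3.72 FPKM in the HKO libraries. IKO replicate 5 lay inside the HKO range and the other IKO libraries above it. The mean was 5.39 ± 1.02 FPKM in IKO and 3.82 ± 0.355 FPKM in HKO, with 3.99 ± 0.341 FPKM in DKO and 5.56 ± 0.86 FPKM in WT (SD, n = 5 each). The log2 difference of 0.43 (SE 0.12) did not pass (limma adjusted p = 0.103; 1 for averaged and 0.91 for correlated pairs). Without IKO replicate 5 it was 0.53 and passed (limma adjusted p = 0.0222). A two-sided exact permutation test of this gene alone gave p = 0.0238. Values per gene sum all exons, and the exons lost from the floxed alleles are not named in the sources used here, so a transcript that lacks some exons would still be counted.

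**Figure D1:**
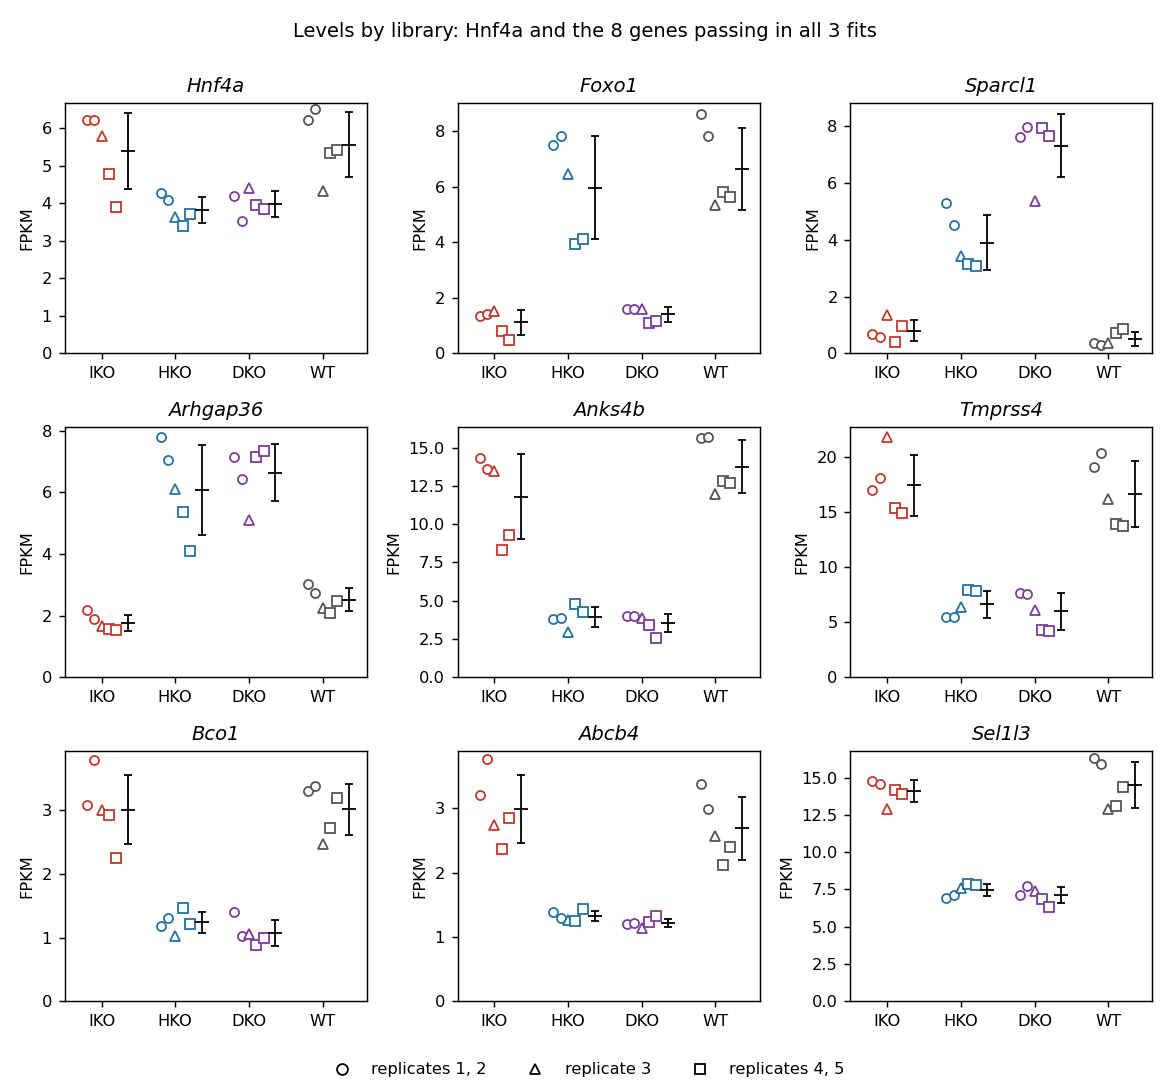
Level in FPKM (vertical axes, from 0) of Hnf4a and of the 8 genes that passed in the main, averaged-pair and correlated-pair fits, in each library of IKO, HKO, DKO and WT; circles are replicates 1 and 2, triangles replicate 3, squares replicates 4 and 5, and bars the mean ± SD of 5 libraries. Foxo1 has its IKO and DKO libraries low together. Each of the others of the 8 has its WT mean nearer to IKO than to HKO and its DKO mean nearer to HKO. Sel1l3 has means of 14.1 FPKM in IKO, 7.46 in HKO, 7.1 in DKO and 14.5 in WT, while Arhgap36 has 1.76 in IKO and 2.52 in WT.

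Apart from Foxo1, the genes that passed in all 3 fits were Anks4b, Tmprss4, Bco1, Abcb4 and Sel1l3, higher in IKO, and Sparcl1 and Arhgap36, lower in IKO. Each of these 7 also passed with any single library left out. Anks4b (chr7:120173858-120185586), the scaffold of the adhesion complex that links microvillus tips in gut and kidney, had 14.3, 13.6, 13.5, 8.32 and 9.28 FPKM in IKO libraries, against 3.78, 3.87, 2.96, 4.78 and 4.24 FPKM in HKO libraries. The lowest IKO library stood well above the highest HKO library, and replicates 4 and 5 were low in IKO and high in HKO. The mean was 3.01 times as high in IKO (11.8 ± 2.78 against 3.93 ± 0.669 FPKM; log2 difference 1.46, SE 0.15, limma adjusted p = 2.5e-05). Anks4b averaged 3.56 ± 0.599 FPKM in DKO and 13.8 ± 1.75 FPKM in WT.

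Tmprss4 (chr9:45172726-45204092), a membrane-bound serine protease of epithelia, had 17, 18.1, 21.9, 15.4 and 14.9 FPKM in IKO libraries, against 5.51, 5.45, 6.4, 7.95 and 7.82 FPKM in HKO libraries. The groups did not overlap, and the log2 difference was 1.34 (SE 0.17, limma adjusted p = 0.00013). Bco1 (chr8:117095854-117133720), the enzyme that cleaves beta-carotene into retinal, had 3.09, 3.79, 3.01, 2.92 and 2.25 FPKM in IKO libraries, against 1.18, 1.31, 1.03, 1.46 and 1.21 FPKM in HKO libraries. Its mean was 2.43 times as high in IKO (limma adjusted p = 4.84e-05; 0.0209 for averaged pairs), again without overlap. Abcb4 (chr5:8893717-8959231), which moves phosphatidylcholine across the bile canaliculus membrane in liver, averaged 2.98 ± 0.529 FPKM in IKO and 1.32 ± 0.0812 FPKM in HKO (log2 difference 0.92, SE 0.10, limma adjusted p = 4.84e-05). HKO libraries held Abcb4 within 1.24 to 1.43 FPKM, while IKO libraries ran from 2.36 to 3.76 FPKM. Sel1l3 (chr5:53107083-53213927), a relative of the endoplasmic reticulum protein gene Sel1l, had 14.8, 14.6, 12.9, 14.2 and 13.9 FPKM in IKO libraries, against 6.9, 7.11, 7.6, 7.87 and 7.81 FPKM in HKO libraries. Both groups were tight, and at a log2 difference of 0.87 (SE 0.07) Sel1l3 had the smallest adjusted p of the 82 genes (limma, 1.45e-06).

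Sparcl1 (chr5:104079111-104113733), a secreted matricellular protein of the SPARC family, had 0.667, 0.578, 1.34, 0.393 and 0.966 FPKM in IKO libraries, against 5.29, 4.51, 3.42, 3.16 and 3.07 FPKM in HKO libraries. All IKO libraries were below all HKO libraries, and IKO averaged 20.3% of HKO (log2 difference -1.79, SE 0.19, limma adjusted p = 3.3e-05). Its mean was higher again in DKO (7.32 ± 1.1 FPKM) and lowest in WT (0.513 ± 0.249 FPKM). Arhgap36 (chrX:49463945-49500244), a RhoGAP-family protein that inhibits the catalytic subunit of protein kinase A, had 2.17, 1.9, 1.65, 1.56 and 1.52 FPKM in IKO libraries, against 7.81, 7.04, 6.11, 5.35 and 4.09 FPKM in HKO libraries. It averaged 29% of HKO in IKO, with a log2 difference of -1.52 (SE 0.14, limma adjusted p = 5.9e-06). DKO libraries had 5.11 to 7.34 FPKM and WT libraries 2.08 to 3.03 FPKM, a range that IKO replicate 1 reached and the other IKO libraries did not.

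Genes known from studies of other tissues or beta cells as linked to HNF4A were mostly higher in IKO. Of 33 such genes, 20 passed the filter on low values, and 17 of these 20 were above 0 with a median log2 difference of 0.74, against 0.02 and 57% above 0 over all genes tested. Anks4b, Hpgds, Tmprss4, Dio1, Gatm, Elovl2, Bco1, Ccl28 and Ambp passed, all of them higher; 3 of these calls were made with averaged pairs and 7 with correlated pairs. The list was written with earlier results of Hnf4a loss in these libraries known, so its direction is not independent evidence. Its mean log2 level was 3.27, 3.27, 3.24, 3.01 and 2.97 in IKO libraries and 2.46, 2.43, 2.43, 2.62 and 2.57 in HKO libraries, and its median difference was 0.97 within replicates 1 and 2, 0.67 within replicate 3 and 0.48 within replicates 4 and 5.

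Among its enzymes, Dio1 (chr4:107291465-107307169), the deiodinase that makes active thyroid hormone, had 20.3, 19.3, 20.2, 12.4 and 13.8 FPKM in IKO libraries, against 9.29, 8.74, 7.86, 5.45 and 6.96 FPKM in HKO libraries. The lowest IKO library exceeded the highest HKO library (log2 difference 1.11, SE 0.16, limma adjusted p = 0.000631; 0.112 for averaged and 0.0157 for correlated pairs). Elovl2 (chr13:41182381-41220405), which elongates polyunsaturated fatty acids, had 6.33, 6.31, 5.13, 4.21 and 4.22 FPKM in IKO libraries, against 2.07, 2.17, 1.96, 2.55 and 2.51 FPKM in HKO libraries (log2 difference 1.05, SE 0.14, limma adjusted p = 0.000286; 0.0689 for averaged and 0.00297 for correlated pairs). It alone passed among the 21 fatty acid and triglyceride synthesis genes tested, whose median was 0.05. Gatm (chr2:122594467-122611303), the first enzyme of creatine synthesis, averaged 3.43 ± 0.647 FPKM in IKO and 1.31 ± 0.0774 FPKM in HKO (log2 difference 1.10, limma adjusted p = 0.00379; 0.333 for averaged and 0.0342 for correlated pairs). Dio1, Elovl2 and Gatm averaged 7.7, 1.79 and 1.72 FPKM in DKO and 20.6, 5.13 and 3.35 FPKM in WT.

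Hpgds (chr6:65117293-65144908), which makes prostaglandin D2, differed unevenly between library sets. It had 11.4, 11.1, 6.79, 9.52 and 10.2 FPKM in IKO libraries, against 2.35, 2.15, 1.96, 7.15 and 6.59 FPKM in HKO libraries. IKO replicate 3 lay below HKO replicate 4, and the log2 difference was 2.10 within replicates 1 and 2, 1.57 within replicate 3 and 0.49 within replicates 4 and 5. Over all libraries it was 1.35 (SE 0.27, limma adjusted p = 0.0158; 0.547 for averaged and 0.0449 for correlated pairs), and the call was lost without replicate 1 or 2 of either genotype, with an adjusted p of at most 0.0613. Among the secreted proteins, Ccl28 (chr13:119623819-119654359), a mucosal chemokine, averaged 10.2 ± 2.64 FPKM in IKO and 5.32 ± 0.944 FPKM in HKO (log2 difference 0.85, limma adjusted p = 0.00531; 0.547 for averaged and 0.0664 for correlated pairs). The Ccl28 difference was also uneven, at 1.47 within replicates 1 and 2, 0.39 within replicate 3 and 0.47 within replicates 4 and 5. Its call was lost when IKO replicates 1 and 2 were both left out. Ambp (chr4:63143275-63154799), the precursor of the plasma proteins alpha-1-microglobulin and bikunin, averaged 12.8 ± 2.04 FPKM in IKO and 7.14 ± 1.25 FPKM in HKO (log2 difference 0.80, limma adjusted p = 0.00542; 0.333 for averaged and 0.0692 for correlated pairs).

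Of the transcription factors of the HNF4 network, 8 of 16 were tested, 7 were above 0 and 1 passed, with a median of 0.15. That one was Nr1h4 (chr10:89454234-89533585), the bile acid receptor FXR, at 4.27, 4.18, 5.09, 4.34 and 4.11 FPKM in IKO libraries, against 2.45, 2.44, 2.34, 3.21 and 3.43 FPKM in HKO libraries. The groups did not overlap and the log2 difference was 0.59 (SE 0.11, limma adjusted p = 0.00738; 0.333 for averaged and 0.184 for correlated pairs). Foxa2, a pioneer factor of endoderm, did not pass (34.5 ± 2.05 FPKM in IKO and 30.9 ± 2.08 FPKM in HKO; limma adjusted p = 0.45).

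Microvillus and intermicrovillar adhesion genes were tested in 9 of 17 cases, of which 7 were above 0, 3 passed and the median was 0.25. Beside Anks4b, Ush1c (chr7:46195350-46238503), the scaffold harmonin of the same complex, had 29.5, 29.1, 35.8, 27.3 and 27.8 FPKM in IKO libraries, against 19.1, 18.7, 21.3, 19.9 and 20.8 FPKM in HKO libraries. Each IKO library was above each HKO library (log2 difference 0.57, SE 0.09, limma adjusted p = 0.00176; 0.318 for averaged and 0.0137 for correlated pairs). Vil1 (chr1:74409376-74435559), the actin-bundling protein villin, had 22, 22.1, 27.7, 14.7 and 15.5 FPKM in IKO libraries, against 11.9, 11.9, 11.5, 12.2 and 12.1 FPKM in HKO libraries. The HKO libraries lay close together and the IKO libraries spread widely above them (log2 difference 0.71, SE 0.16, limma adjusted p = 0.0417; 0.679 for averaged and 0.065 for correlated pairs). Its call was lost with an adjusted p of at most 0.108 when WT replicate 4, IKO replicate 1, 2 or 3, DKO replicate 1 or 2, or any HKO library was left out. Cdhr2, a cadherin of the same links, averaged 0.661 FPKM in IKO and 0.429 FPKM in HKO and did not pass (limma adjusted p = 0.372).

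Further genes higher in IKO included Gucy2c, Anpep, Nnat, Gc and Stk32b. Gucy2c (chr6:136697284-136781765), the gut receptor for guanylin peptides, had 9.8, 10, 9.95, 13 and 13.6 FPKM in IKO libraries, against 5.49, 5.12, 7.32, 6.29 and 6.67 FPKM in HKO libraries. No libraries overlapped (log2 difference 0.81, SE 0.11, limma adjusted p = 0.000219; 0.143 for averaged and 0.00884 for correlated pairs). Anpep (chr7:79821803-79861059), the membrane peptidase aminopeptidase N, averaged 12.8 ± 2.49 FPKM in IKO and 7.38 ± 1.01 FPKM in HKO (log2 difference 0.75, limma adjusted p = 0.00539; 0.391 for averaged and 0.0598 for correlated pairs). Nnat (chr2:157560078-157562522), the imprinted gene of neuronatin, a small membrane protein of the endoplasmic reticulum that in mouse beta cells supports insulin secretion, had 3.94, 4.82, 3.68, 4.48 and 4.9 FPKM in IKO libraries, against 1.83, 1.8, 0.775, 2.52 and 1.7 FPKM in HKO libraries. The lowest IKO library was above the highest HKO library (log2 difference 1.17, SE 0.17, limma adjusted p = 0.000892; 0.136 for averaged and 0.0561 for correlated pairs). Gc (chr5:89417522-89457898), the vitamin D-binding protein, averaged 82.9 ± 11.5 FPKM in IKO and 54.5 ± 6.08 FPKM in HKO (log2 difference 0.60, limma adjusted p = 0.00229; 0.365 for averaged and 0.065 for correlated pairs). Stk32b (chr5:37446825-37717171), a serine/threonine kinase gene, had 1.81 to 2.35 FPKM in IKO and 0.89 to 1.23 FPKM in HKO (log2 difference 0.75, limma adjusted p = 0.00394; 0.398 for averaged and 0.126 for correlated pairs), and in DKO its mean of 1.92 FPKM was near that of IKO, 2.11 FPKM.

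**Figure D2:**
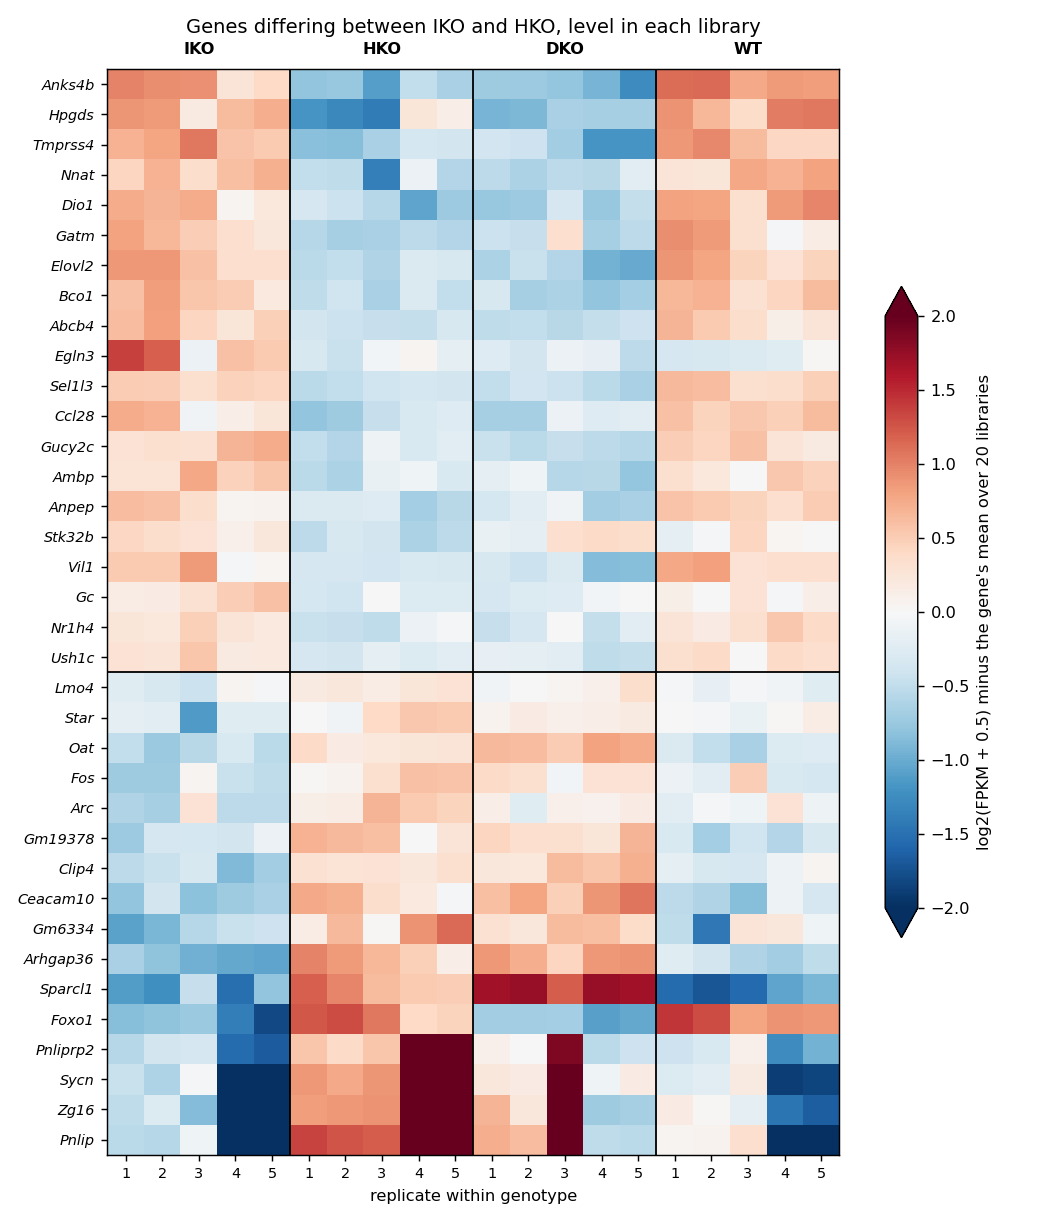
Level of each named gene that passed (rows, from highest to lowest log2 difference of IKO minus HKO) in each of the 20 libraries (columns, by genotype and replicate), as log2(FPKM + 0.5) minus the gene's mean over the 20 libraries; colours are capped at -2 and 2. Most genes above the horizontal line are high in IKO and WT and low in HKO and DKO, as for Anks4b with means of 11.8, 3.93, 3.56 and 13.8 FPKM in IKO, HKO, DKO and WT, while the pancreatic enzyme genes at the bottom are highest in HKO replicates 4 and 5 and DKO replicate 3.

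Of 20 genes that beta cells normally keep off, 6 were tested. Their median was 0.06, with 4 above 0, the highest of them Ldha at 2.30 (given with the glycolysis genes), and 2, Oat and Lmo4, passed as lower in IKO. Oat (chr7:132557478-132576398), the mitochondrial enzyme ornithine aminotransferase, had 0.924, 0.694, 0.864, 1.12 and 0.879 FPKM in IKO libraries, against 2.09, 1.74, 1.8, 1.86 and 1.89 FPKM in HKO libraries. The groups were far apart for their spread (log2 difference -0.77, SE 0.09, limma adjusted p = 9.85e-05; 0.0689 for averaged and 0.0875 for correlated pairs). Oat averaged 2.66 ± 0.258 FPKM in DKO and 1.02 ± 0.172 FPKM in WT. Lmo4 (chr3:144188530-144205220), a LIM-domain transcriptional cofactor, averaged 1.74 ± 0.309 FPKM in IKO and 2.46 ± 0.115 FPKM in HKO (log2 difference -0.41, limma adjusted p = 0.0464; 0.917 for averaged and 0.873 for correlated pairs). Its call was lost when any of 15 libraries was left out, with an adjusted p of at most 0.127; only the loss of IKO replicates 4 or 5, HKO replicate 3 or DKO replicates 3 or 5 kept it.

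Ceacam10 (chr7:24777206-24784657), a member of the carcinoembryonic antigen family whose close relatives could share reads, had 0.569 to 0.971 FPKM in IKO libraries and 1.34 to 2.69 FPKM in HKO libraries. Its log2 difference was -1.06 (SE 0.16, limma adjusted p = 0.00122; 0.136 for averaged and 0.0861 for correlated pairs), and its mean was 2.75 FPKM in DKO and 0.873 FPKM in WT. Clip4 (chr17:71768473-71864273), of a family of microtubule-binding linker proteins, had 1.67, 1.79, 2, 1.2 and 1.42 FPKM in IKO libraries, against 3.34, 3.28, 3.33, 3.17 and 3.42 FPKM in HKO libraries. All HKO libraries exceeded all IKO libraries (log2 difference -0.86, SE 0.11, limma adjusted p = 0.000272; 0.136 for averaged and 0.0295 for correlated pairs). Its WT mean of 2.28 ± 0.317 FPKM lay between the single knockouts, and its DKO mean was 3.86 ± 0.689 FPKM. Gm19378 averaged 1.74 ± 0.328 FPKM in IKO and 3.48 ± 0.781 FPKM in HKO (log2 difference -0.82, limma adjusted p = 0.00354; 0.0883 for averaged and 0.656 for correlated pairs). Gm6334 (chr8:4778042-4778269), annotated as a processed pseudogene and so uncertain where reads of a parent gene could be split, averaged 1.71 ± 0.429 FPKM in IKO and 4.88 ± 1.73 FPKM in HKO (log2 difference -1.25, limma adjusted p = 0.0329; 0.838 for averaged and 0.875 for correlated pairs). Its call was lost without IKO replicate 1 or 2 or HKO replicate 2, 4 or 5, with an adjusted p of at most 0.0902.

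Immediate early and heat shock genes, which respond within minutes to stimulation or handling, were tested in 20 cases, of which 16 were below 0 and 1 passed, with a median of -0.24. Their median was -0.19, -0.25 and -0.25 in replicates 1 and 2, in replicate 3 and in replicates 4 and 5. Fos (chr12:85473890-85477273), a subunit of the AP-1 transcription factor, had 48.7, 48.6, 83.1, 58.6 and 56 FPKM in IKO libraries, against 81.1, 84.2, 99.4, 120.1 and 119 FPKM in HKO libraries. IKO replicate 3 alone reached the HKO range (log2 difference -0.78, SE 0.16, limma adjusted p = 0.0326). Arc (chr15:74669083-74672570), an activity-regulated gene outside that list, had 0.97, 0.912, 2.23, 1.06 and 1.05 FPKM in IKO libraries, against 1.93, 1.99, 3.1, 2.72 and 2.56 FPKM in HKO libraries. Again IKO replicate 3 alone reached the HKO range (log2 difference -0.79, SE 0.16, limma adjusted p = 0.0192). Both calls were lost without IKO replicate 1, 2, 4 or 5 or HKO replicate 4 or 5, with an adjusted p of at most 0.0935 for Fos and 0.0736 for Arc, and neither averaged nor correlated pairs gave them. Fosb, a further AP-1 subunit, averaged 1.37 ± 0.41 FPKM in IKO and 2.55 ± 0.589 FPKM in HKO and did not pass (limma adjusted p = 0.199). Star (chr8:25806555-25815982), which brings cholesterol into mitochondria for steroid synthesis, had 11.2, 10.9, 5.58, 10.8 and 10.8 FPKM in IKO libraries, against 12.8, 12.2, 17, 18.8 and 18.6 FPKM in HKO libraries (log2 difference -0.68, SE 0.15, limma adjusted p = 0.0413; 0.676 for averaged and 0.0652 for correlated pairs). The groups did not overlap, but the call was lost when any of 13 libraries was left out (WT replicates 1, 2 and 4, IKO replicates 2, 4 and 5, HKO replicates 3, 4 and 5, and all DKO libraries but replicate 3), with an adjusted p of at most 0.104.

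Genes of insulin supply, glucose sensing and beta cell identity gave no call in limma without a block for the library set. Whether they would with such a block was not tested. Among 20 genes for making insulin and its granules, 20 for sensing glucose and releasing insulin, 18 transcription factors of beta cells and 23 FoxO targets tested, 0 passed on FPKM and 0 by voom on recovered reads. At an unadjusted p under 0.05 there were 1, 1, 3 and 2 of them, against 1002 of all 12455 genes tested. The medians of these lists were 0.02, 0.00032, 0.01 and -0.01. Ins1 averaged 49108 ± 1959 FPKM in IKO and 53698 ± 7105 FPKM in HKO (log2 difference -0.12, limma adjusted p = 0.999). Mafa, a transcription factor of mature beta cells, averaged 115 ± 38.2 FPKM in IKO and 163 ± 52 FPKM in HKO with overlapping libraries (log2 difference -0.52, limma adjusted p = 0.516). Irs2, the insulin receptor substrate and a textbook FoxO target, averaged 17.9 ± 2.42 FPKM in IKO and 14.1 ± 0.933 FPKM in HKO and did not pass (log2 difference 0.32, limma adjusted p = 0.0611). The Irs2 mean was 14 ± 0.963 FPKM in DKO and 17 ± 0.699 FPKM in WT. Among the other FoxO genes, Foxo3 averaged 7.71 ± 1.98 FPKM in IKO and 6.93 ± 1.75 FPKM in HKO, and Foxo4 4.84 ± 0.646 FPKM in IKO and 4.93 ± 0.369 FPKM in HKO (limma adjusted p = 0.979 and 0.999). Npy, a neuropeptide of immature beta cells, averaged 16.4 ± 2.96 FPKM in IKO and 33.6 ± 13 FPKM in HKO and did not pass (log2 difference -0.94, limma adjusted p = 0.0835). The Npy mean was 31.8 ± 5.53 FPKM in DKO and 11.2 ± 3.75 FPKM in WT, and DKO against WT passed (limma adjusted p = 0.0014). Beta cell maturity genes gave 1 call among 15, Nnat, and dedifferentiation and progenitor genes 0 among 9 (3 at an unadjusted p under 0.05, 0 by voom).

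**Figure D3:**
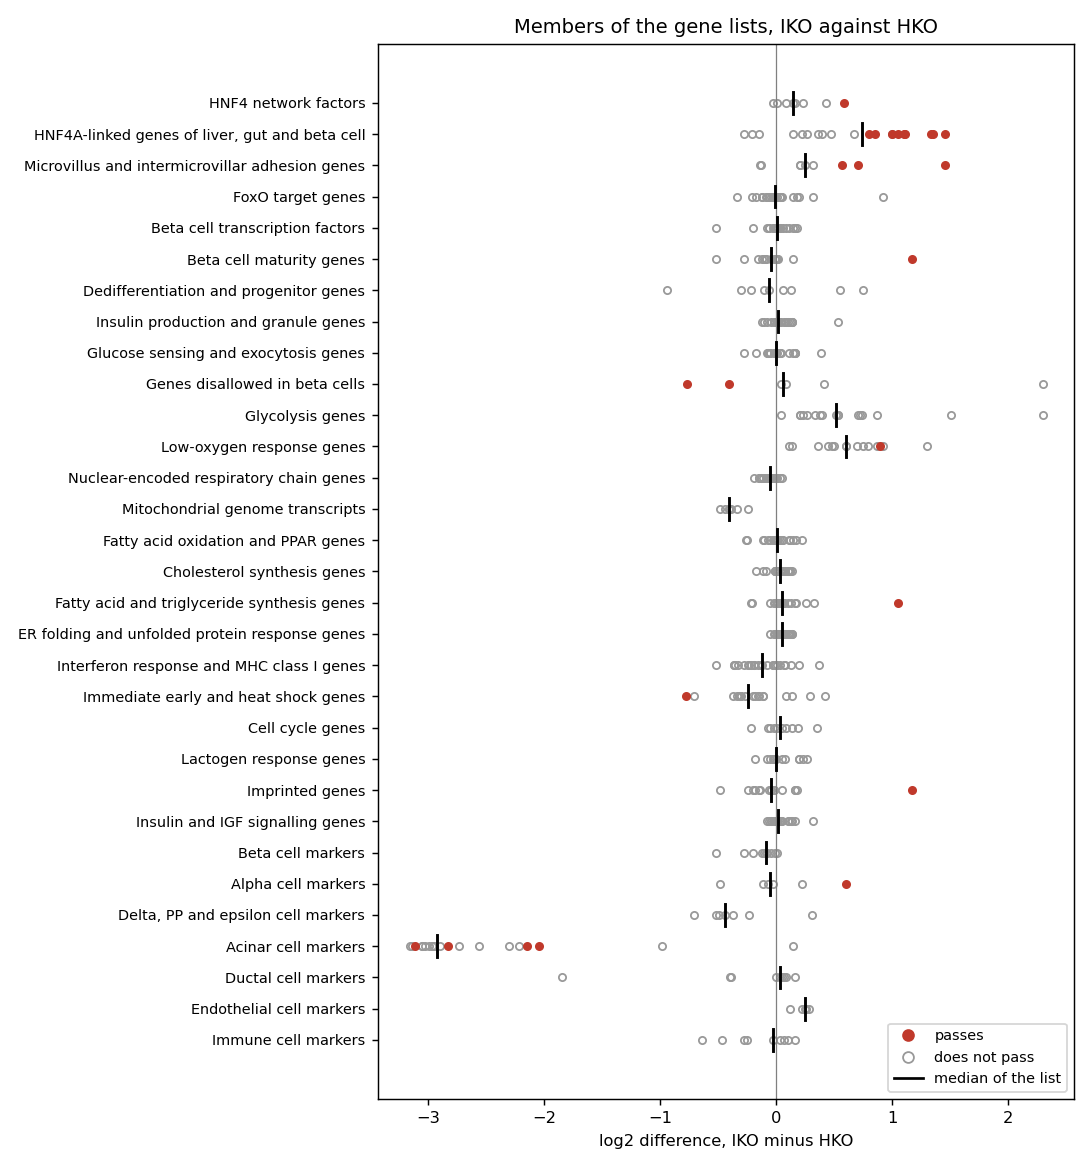
Log2 difference, IKO minus HKO (horizontal axis), of each tested member of the gene lists with at least 5 tested members (rows); filled red points passed, open grey points did not, and the black bar is the median of the list. The HNF4A-linked list has its median at 0.74 with 9 members passing, the beta cell transcription factors gather around 0.01 with 0 passing, and the acinar cell markers have their median at -2.92.

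Genes of the low-oxygen response and of glycolysis were high in some IKO libraries and not in others. All 15 low-oxygen genes tested were above 0 with a median of 0.60, and all 17 glycolysis genes were above 0 with a median of 0.52, but only 1 and 0 of them passed in limma. At an unadjusted p under 0.05 there were 12 and 14, against 1002 of all 12455 genes tested. Voom on recovered reads called 0 of either list. The mean log2 level of the low-oxygen genes was 4.54, 4.50, 3.23, 3.87 and 3.88 in IKO libraries and 3.14, 3.18, 3.33, 3.62 and 3.59 in HKO libraries. IKO replicates 1 and 2 stood highest of all 20 libraries, and IKO replicate 3 fell inside the HKO range. Their median difference was 1.47 within replicates 1 and 2, -0.08 within replicate 3 and 0.25 within replicates 4 and 5, and that of the glycolysis genes 1.10, 0.04 and 0.16. Ldha, the lactate dehydrogenase subunit that beta cells keep low, had 42.6, 41.6, 1.36, 14.6 and 14.9 FPKM in IKO libraries, against 0.608, 0.336, 1.46, 11.6 and 11.8 FPKM in HKO libraries. The groups overlapped, and a log2 difference of 2.30 (SE 0.76) did not pass (limma adjusted p = 0.249). Egln3 (chr12:54178981-54203860), the prolyl hydroxylase that is itself induced by low oxygen, passed at 2.07, 1.79, 0.42, 0.996 and 0.93 FPKM in IKO libraries, against 0.296, 0.23, 0.458, 0.536 and 0.377 FPKM in HKO libraries (log2 difference 0.90, SE 0.20, limma adjusted p = 0.0413). IKO replicate 3 lay within the HKO range. The call was lost with an adjusted p of at most 0.119 without any of 12 libraries (IKO replicates 1, 2, 4 and 5, HKO replicates 1, 2 and 5, DKO replicates 1 and 2, and WT replicates 1, 2 and 4), and averaged or correlated pairs did not give it. Without IKO replicates 1 and 2 the medians were 0.33 for the low-oxygen genes and 0.32 for the glycolysis genes, and 55 genes passed in all, 42 of them among the 82.

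Digestive enzyme genes of acinar cells, the exocrine neighbours of the islet, made up the most negative differences. Of 20 acinar markers tested 19 were below 0 with a median of -2.92, 18 did not overlap between the groups (100 of all genes tested, 0.803%, had all IKO libraries lower), and 4 passed, among them Pnlip, Zg16 and Pnliprp2. Voom on recovered reads called 0 of the 20, as did averaged and correlated pairs. In limma 19 had an unadjusted p under 0.05, against 1002 of all 12455 genes tested. Pnlip, pancreatic lipase, had 9.79, 9.55, 13.5, 1.28 and 1.6 FPKM in IKO libraries, against 37.4, 35.1, 34.1, 71.3 and 76.5 FPKM in HKO libraries (log2 difference -3.11, SE 0.71, limma adjusted p = 0.0465). Replicates 4 and 5 were the lowest of IKO and the highest of HKO, and the groups did not overlap. Zg16, a protein of enzyme granules, the lipase Pnliprp2 and Sycn, a granule protein outside that list, had log2 differences of -2.83, -2.15 and -2.71 (limma adjusted p = 0.0413, 0.0413 and 0.0471), and averaged or correlated pairs did not call Sycn either. The markers' mean log2 level was 2.73, 2.75, 3.02, 0.89 and 0.73 in IKO libraries and 3.95, 3.95, 3.93, 5.50 and 5.54 in HKO libraries; their summed level was 50.2 to 269 FPKM in IKO, 461 to 1679 FPKM in HKO, 206 to 1626 FPKM in DKO and 68.4 to 302 FPKM in WT. Prss1 and Amy2a5 were listed at 0 in all 10 IKO and HKO libraries. In bulk libraries fewer cells of a type and less RNA per cell cannot be told apart. The calls of Pnlip, Zg16, Pnliprp2 and Sycn were lost when any of 14, 9, 10 and 17 libraries was left out, HKO replicates 4 and 5 among them for each, with adjusted p of at most 0.134, 0.112, 0.112 and 0.139. Without HKO replicates 4 and 5 and DKO replicate 3 the list's median was -2.19. With the acinar level of each library as a covariate 97 genes passed, 48 of them among the 82, and the part of acinar transcripts in the other differences was not tested further.

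**Figure D4:**
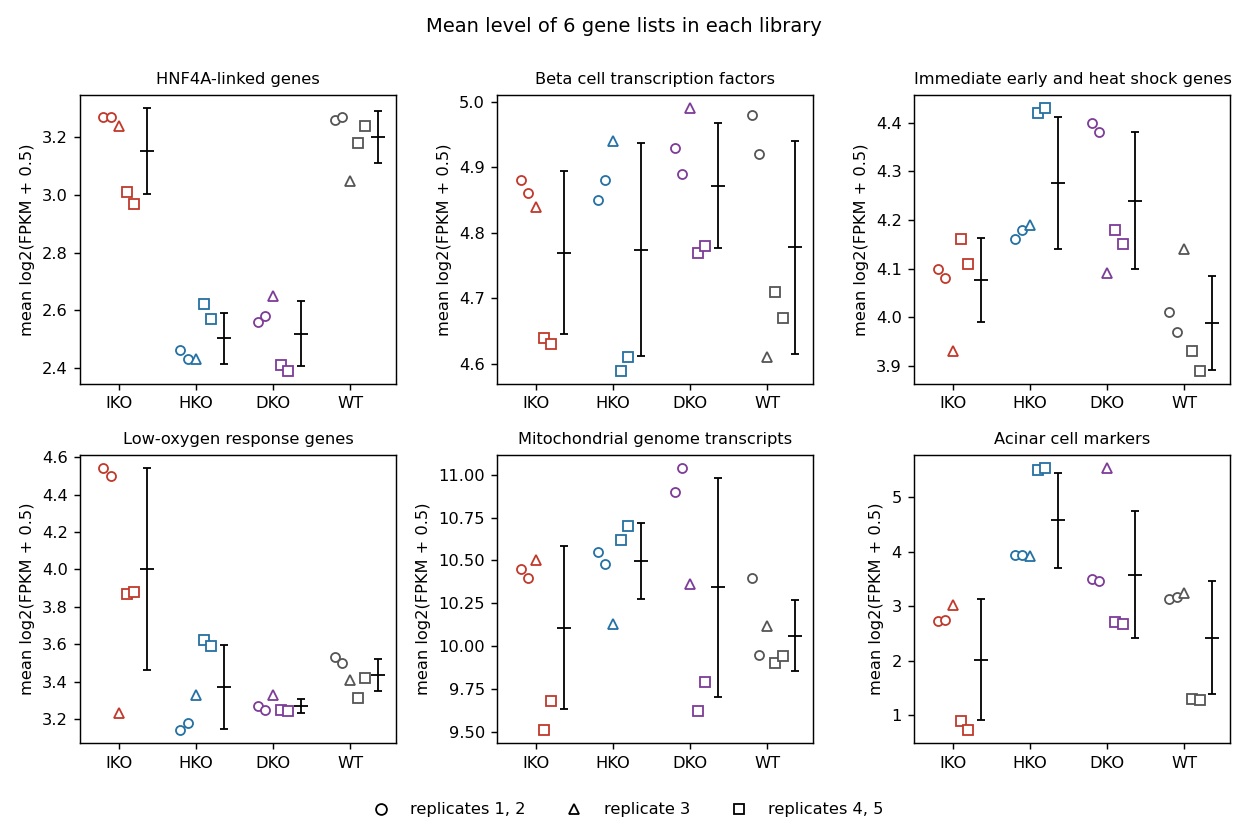
Mean log2(FPKM + 0.5) over the tested members of 6 gene lists (vertical axes, which do not start at 0) in each library of IKO, HKO, DKO and WT; circles are replicates 1 and 2, triangles replicate 3, squares replicates 4 and 5, and bars the mean ± SD of 5 libraries. The HNF4A-linked genes are above every HKO library in all 5 IKO libraries, the low-oxygen genes are highest in IKO replicates 1 and 2 (4.54 and 4.50), and the acinar markers are highest in HKO replicates 4 and 5 (5.50 and 5.54) and DKO replicate 3 (5.53).

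Other lists differed in size or sign between library sets. Transcripts of the mitochondrial genome had a median of -0.41 with 0 of 7 passing, which was -0.10 in replicates 1 and 2, 0.37 in replicate 3 and -1.05 in replicates 4 and 5. Genes induced by interferon had a median of -0.12 with 0 of 26 passing, and -0.49 in replicates 4 and 5. Markers of delta, PP and epsilon cells had a median of -0.44 with 0 of 7 passing, and their summed level was 1272 to 1522 FPKM in IKO and 895 to 3679 FPKM in HKO. Respiratory chain genes of the nucleus (27 tested, median -0.05), fatty acid oxidation genes (19, 0.0043), cholesterol synthesis genes (22, 0.03), unfolded protein response genes (25, 0.05) and insulin and IGF signalling genes (22, 0.02) gave 0 calls each. Ductal, endothelial and immune markers gave 0 calls among 9, 5 and 9 tested. All of these counts of 0 are from limma and were also 0 by voom, both without a block for the library set. At an unadjusted p under 0.05 they ranged from 0 of 22 (cholesterol synthesis) to 5 of 19 (fatty acid oxidation). Over all genes tested 1002 of 12455 had such a p. Of the interferon, delta cell and mitochondrial lists 1, 1 and 0 genes had such a p, and of alpha cell markers only Gc, named above, passed among 6 tested.

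DKO against WT asks about the same genes in 10 libraries that the IKO minus HKO difference does not use, though the estimate of its spread does. There 150 genes passed (1.20% of those tested), 56 higher in DKO (0.450%) and 94 lower (0.755%). Of the 57 genes higher in IKO than in HKO, 42 passed as lower in DKO than in WT and 0 as higher (0 also at an unadjusted p under 0.05 and by voom), and 54 were below 0 against 43.6% of all genes tested, with a median of -0.47. Of the 25 genes lower in IKO, 9 passed as higher in DKO, 1 as lower (Foxo1), and 23 were above 0, with a median of 0.64 against 0.02 over all genes tested. The fits share 1 estimate of the spread; with each pair of groups fitted alone, 27 genes were higher in IKO (0.217%) and 12 lower (0.0963%). Of the 27, 23 passed as lower in DKO, as did 0.851% of all genes tested, and of the 12, 5 passed as higher, as did 0.442%. Anks4b had a DKO minus WT difference of -1.82 (SE 0.15, limma adjusted p = 5.83e-07), Sel1l3 of -0.98 (SE 0.07, 8.93e-08) and Sparcl1 of 2.97 (SE 0.19, 2.86e-08). Genes that passed between IKO and HKO and not here included Egln3 (-0.05, limma adjusted p = 0.981), Stk32b (0.10, 0.95), Star (0.13, 0.944), Arc (0.08, 0.96) and the 4 acinar markers that passed.

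**Figure D5:**
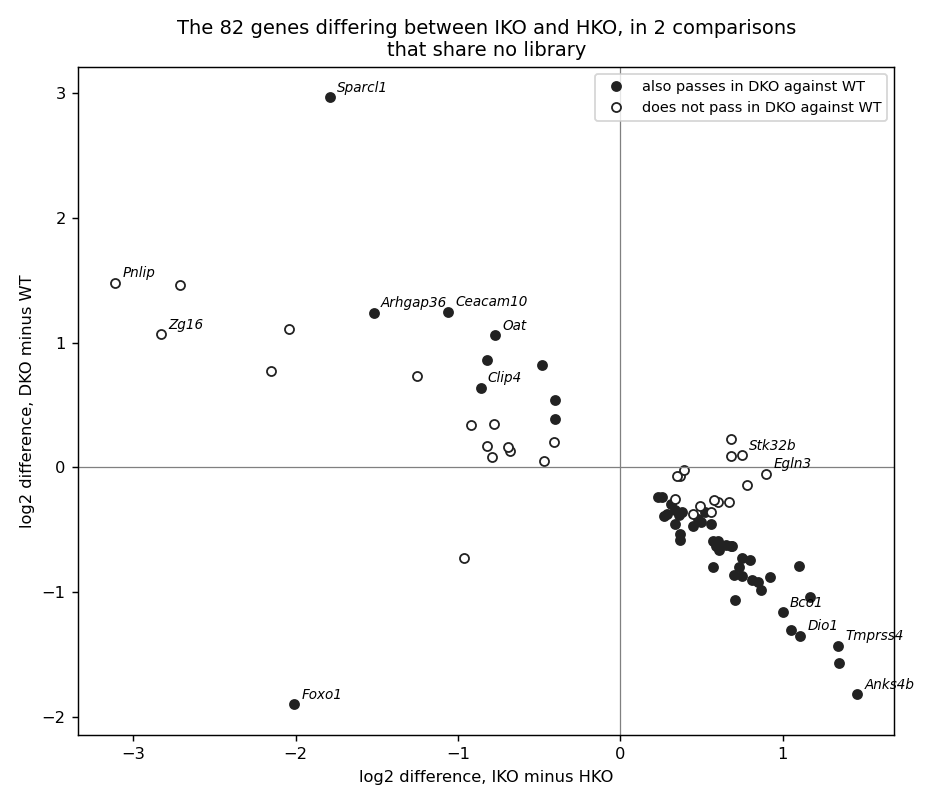
Log2 difference of DKO minus WT (vertical axis) against log2 difference of IKO minus HKO (horizontal axis) for the 82 genes that passed between IKO and HKO, 1 point a gene; filled points also passed in DKO against WT. Of the 57 genes to the right of 0, 54 are below 0 on the vertical axis, and Foxo1 lies apart at the lower left with -2.01 and -1.90.

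The WT mean was nearer to the IKO than to the HKO mean in 52 of the 57 genes higher in IKO and in 21 of the 25 lower in IKO, against 52.7% of all genes tested; both distances use the same WT libraries. The DKO mean was nearer to the HKO mean in 53 of the 57 and in 23 of the 25, against 57.9% of all genes tested. The WT mean lay between those of the single knockouts in 30 of the 57 and 19 of the 25. All 57 genes had the same sign within replicates 1 and 2 and within replicates 4 and 5, and 56 within replicate 3. All 25 had it within replicates 1 and 2 and within replicates 4 and 5, and 24 within replicate 3. These genes were chosen by their difference over the same libraries, so the shared sign is not independent support.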

How the data were processed

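RNA of sorted beta cells was sequenced as paired 42-base reads from directional poly-A libraries, per the labels' protocols. The deposited table holds FPKM values that the authors made; mm10, STAR 2.5.2b, Subread 1.5.2 with featureCounts, and DESeq2 1.14.1 are named, without roles, in the submitters' processing notes. No annotation release or counting of shared reads is given in the sources used here, so paralogs, pseudogenes and overlapping genes are uncertain.

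The table has 27179 entries; 847 named NA and 27 turned into dates were left out, and 26305 remained. Whole reads were recovered for 100% of 21006 entries above 0 (tolerance 0.02 reads), and limma voom on them was an alternative. Genes averaging 0.5 FPKM or more across the 20 libraries were fitted as log2(FPKM + 0.5) in limma 3.58.1 (R 4.3.3), with 4 genotype means, a trended prior and Benjamini-Hochberg adjustment over 12455 genes. Fold changes on this scale understate those of low genes. On simulated data for IKO against HKO over 12455 genes, 95 of 100 genes changed by 1 on the log2 scale and 100 of 100 changed by 2 were called, with 10 unchanged genes. The simulated libraries were independent of each other, while the real close pairs had a consensus correlation of 0.81. These counts therefore do not measure how many calls are missed or false in the real libraries.

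Named genes are Foxo1, Hnf4a, the 15 largest differences each way among passing genes with at least 2 FPKM in the higher group, genes passing in all 3 fits, passing members of lists and, for described lists, up to 4 largest members; Ins1 and the genes with a motif match were named outside this rule, after their values were seen. Some genes that the rule names are not reported here, and counts include them. Lists and the comparison itself were chosen with earlier results of these data known. Coordinates are from GENCODE M21 (GRCm38, the assembly called mm10); promoters are from RefSeq. Replicate numbers were not taken as pairs, since the deviations of IKO and HKO replicate 3 correlated at only 0.07. Alternatives changed the pseudocount, filter, scaling, spread, prior, blocks, close pairs, an acinar covariate and each library.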

Additional observations from a re-analysis of the deposited data

Results flagged for a closer look

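In 86 groups of 5 libraries checked, 4 had 1 library apart from the rest by more than Dixon's critical value, where chance gives about 1 in 20, and each time it was IKO replicate 3. Arc was at 2.23 FPKM there, against 0.912 to 1.06 FPKM in the other IKO libraries. Star was at 5.58 FPKM, against 10.8 to 11.2 FPKM. Nr1h4 was at 5.09 FPKM, against 4.11 to 4.34 FPKM, and Ush1c at 35.8 FPKM, against 27.3 to 29.5 FPKM.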

How the results depend on the processing

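The 82 genes between IKO and HKO became 39 with only the libraries of these groups, 168 with the replicate number as a block, 275 with the library set (replicates 1 and 2, 3, 4 and 5) as a replicate block, 9 with close pairs averaged and 20 with them correlated, and 128 without the 3 libraries highest in acinar transcripts, an alternative chosen after seeing the data, as was leaving out IKO replicates 1 and 2 (55). Leaving out 1 library gave 52 to 226. The 150 genes between DKO and WT became 263 and 363 with the number and the set as a replicate block, and 17 and 42 with close pairs averaged and correlated; leaving out 1 library gave 101 to 180. Without the filter 172 genes passed there, 49.4% of them higher in DKO, against 37.3%. Hnf4a passed with the set as a replicate block (0.43, limma adjusted p = 0.0261) and not with close pairs averaged (1) or correlated (0.91), and leaving out 1 library gave it 0.38 to 0.53. Other pseudocounts, filters, scalings, the untrended prior, voom and the acinar covariate kept the count for IKO against HKO at 71 to 97. The genes themselves changed more. Among the 82 were 62 of 87 with equal medians, 70 of 89 with quantile scaling, 59 of 77 without the filter and 48 of 97 with the acinar covariate. Other pseudocounts gave 79 of 79 and 80 of 83, the higher filter 71 of 71, the untrended prior 80 of 90 and voom 72 of 79. For the named genes that passed, 1026 values under the alternatives kept direction and side of the threshold, 269 lost the call and 0 turned. IKO and HKO libraries of one number had correlated deviations of 0.29, 0.28, 0.07, 0.44 and 0.33, and not every library correlated best with its own number, so the number was not taken as a pairing. The library sets did deviate together across the genotypes: correlations were 0.28 to 0.30 within replicates 1 and 2, 0.33 to 0.44 within replicates 4 and 5 and -0.36 to -0.32 between these sets. Genes near 0.5 FPKM rest on few reads.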

Other observations

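Genes outside the lists, named after their values were seen, also differed. Grtp1, a TBC-domain protein gene, averaged 13.9 ± 0.915 FPKM in IKO and 8.92 ± 0.683 FPKM in HKO (log2 difference 0.61, limma adjusted p = 3.3e-05) and is the ninth gene that passed with close pairs averaged. Correlated pairs did not call it (limma adjusted p = 0.0701). Gabbr2, Cacnb3, Serpina10, Tacc2 and Pamr1 passed with close pairs correlated and not with them averaged. Gabbr2, a subunit of the GABA-B receptor, averaged 35.8 ± 4.77 FPKM in IKO and 22 ± 1.95 FPKM in HKO (limma adjusted p = 0.000286). Cacnb3, a beta subunit of voltage-gated calcium channels, averaged 20.3 ± 0.943 FPKM in IKO and 14.7 ± 0.815 FPKM in HKO (limma adjusted p = 0.000631). Serpina10, an inhibitor of coagulation factors made by liver, averaged 222 ± 35 FPKM in IKO and 149 ± 14.1 FPKM in HKO (limma adjusted p = 0.00383). Tacc2 averaged 14.2 ± 0.56 FPKM in IKO and 8.38 ± 0.553 FPKM in HKO, and Pamr1 16.2 ± 1.03 FPKM in IKO and 9.9 ± 1.16 FPKM in HKO (limma adjusted p = 5.82e-05 for both).

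Some genes had WT between the single knockouts, and these too were named after their values were seen. Ffar4, a receptor for long-chain fatty acids, averaged 0.556 ± 0.215 FPKM in IKO, 1.47 ± 0.187 FPKM in HKO and 0.882 FPKM in WT (limma adjusted p = 0.000892 between the knockouts). Ache, acetylcholinesterase, averaged 7.21 ± 0.74 FPKM in IKO, 4.75 ± 1.22 FPKM in HKO and 5.37 FPKM in WT (limma adjusted p = 0.0464). Spon2, a secreted matrix protein, averaged 5.04 ± 0.427 FPKM in IKO, 3.43 ± 0.229 FPKM in HKO and 3.98 FPKM in WT (limma adjusted p = 0.00261). Neither averaged nor correlated pairs gave the calls of Ffar4, Ache and Spon2.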
